A study of Homo sapiens with 6 samples.

Results

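Hyaluronan synthesis and turnover genes were examined on 6 Affymetrix arrays. The set was the hyaluronan synthases HAS1, HAS2 and HAS3, the hyaluronidases HYAL1, HYAL2 and HYAL3, the hyaluronan receptor CD44 and the precursor enzyme UGDH. These 8 genes were listed by function, and the set was chosen because HAS2 was higher in the line that expresses TRIM71. Of the 8 genes, 5 had a probeset annotated to that gene alone, 1 probeset each, among 32321 probesets and 18404 genes. These were HAS2, HAS3, HYAL2, CD44 and UGDH, and HAS1, HYAL1 and HYAL3 were not analysed here.

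The arrays held 3 samples of the parental HEK293 Flp-In line, labelled wild-type, and 3 of a HEK293 Flp-In line labelled as FHA-TRIM71 overexpression, in which a FLAG-HA-tagged TRIM71 is made constitutively. HEK293 cells are an established human line of embryonic kidney origin, Flp-In cells carry a recombination site for a transgene, and TRIM71 is an RNA-binding protein of stem and progenitor cells. Only the TRIM71 line is described as kept in hygromycin B, at 50 ug/ml, so transgene, drug and other differences between the lines cannot be told apart. The promoter of the transgene, and whether the line is a clone or a pool, are not given in the sources used here. The labels speak only of a triplicate, so errors and p-values reflect how these samples vary, which may be technical variation.

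Hyaluronan is an unsulfated polysaccharide of the extracellular matrix, made of alternating glucuronic acid and N-acetylglucosamine. Synthases in the plasma membrane build the chain from the UDP forms of both sugars and push it out of the cell, where proteoglycans and link proteins bind it. Surface receptors such as CD44 take hold of it, hyaluronidases cut it, and lysosomal enzymes finish the breakdown. HAS2 is the synthase known for its role in the developing heart and in mesenchymal cells.

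The bases before the annotated start were read from RefSeq (GRCh38.p14) for HYAL2, the other gene of the set that was higher in the TRIM71 line, and for HAS3, a synthase that was not called. They are shown so that the upstream sequence of a gene that was higher and one that was not can be set side by side. Each is 250 bases, 5′ to 3′ on the strand of the gene, and capitals mark a GC box. HYAL2 lies on the minus strand (chr3:50322746-50322995) and HAS3 on the plus strand (chr16:69107290-69107539).
HYAL2: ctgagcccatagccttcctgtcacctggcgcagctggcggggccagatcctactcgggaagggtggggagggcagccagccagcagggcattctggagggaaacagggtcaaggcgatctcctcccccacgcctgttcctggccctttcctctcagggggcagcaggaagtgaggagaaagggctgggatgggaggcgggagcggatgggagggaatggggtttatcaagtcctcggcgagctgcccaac
HAS3: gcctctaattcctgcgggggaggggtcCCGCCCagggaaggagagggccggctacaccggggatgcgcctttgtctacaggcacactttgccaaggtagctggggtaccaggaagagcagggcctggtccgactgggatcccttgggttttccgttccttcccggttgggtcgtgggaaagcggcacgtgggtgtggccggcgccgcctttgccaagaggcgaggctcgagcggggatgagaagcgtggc

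Each promoter window of 300 bases, from 250 before to 50 after the start, was searched on both strands for the GC box GGGCGG, the CCAAT box CCAAT and the TATA box TATAAA, and no matches of different motifs overlapped in the genes named here. The window of HYAL2 held 0 matches, and that of HAS3 held 1 GC box, the stretch in capitals. CD44 and UGDH held 2 GC boxes each and neither of the other motifs. Of 35116 promoter windows of this length, 45.0% held a GC box, 34.6% a CCAAT box and 11.5% a TATA box. Such matches describe letters only. HAS2 had no entry in the promoter table.

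Values are log2 expression made by the authors with RMA, given as mean ± SD with n = 3 arrays per group. Differences are the TRIM71 line minus the parental line, and a gene was called at an adjusted p under 0.05 in a limma fit of all 32321 probesets. TRIM71 itself stood at 10.74 ± 0.11 in its line against 7.40 ± 0.16 in the parental line (log2 difference 3.33, limma adjusted p = 6.75e-05, two-sided exact permutation p = 0.1, the smallest that 3 arrays against 3 allow). Array medians lay between 6.90 and 6.97. The HEK293 genes NEFL, VIM, KRT8, KRT18, CDH2 and PAX2 lay above the median of all probeset means, 6.94, and NEFM lay below it. Of these 7, NEFL fell (log2 difference -1.45, limma adjusted p = 9.55e-05), as did KRT8 (-0.22, 0.0381), while VIM (0.40, 0.0028) and CDH2 (0.42, 0.0027) rose and 3 did not pass. Their log2 summed level was 13.76 to 13.77 on the parental and 13.47 to 13.49 on the TRIM71 arrays. Of 8 fibroblast, 5 leukocyte and 4 endothelial markers measured, 14 of these 17 lay below that median. The log2 summed level of the fibroblast markers was 9.16 to 9.28 on the parental and 9.18 to 9.29 on the TRIM71 arrays. That of the endothelial markers was 6.90 to 7.04 and 6.91 to 7.02. That of the leukocyte markers, 11.54 to 11.68 against 10.98 to 11.04, was carried by LCP1, which fell (log2 difference -0.67, limma adjusted p = 0.0013), while PTPRC stood at 3.53 ± 0.16 and 3.50 on average. One fibroblast marker, PDGFRA, a growth factor receptor, rose (0.34, limma adjusted p = 0.0047), and the part of these markers in the results was not tested.

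Of the synthases measured, HAS2 and HAS3, HAS2 was the one that differed. Its log2 level was 6.99, 7.33 and 7.06 on the parental arrays and 9.01, 9.20 and 9.27 on the TRIM71 arrays. All 3 TRIM71 arrays lay above all 3 parental arrays, with a gap far wider than the spread within either group. The means were 7.13 ± 0.18 and 9.16 ± 0.14, a log2 difference of 2.03 (SE 0.11) or 4.09-fold. A larger difference in either direction was seen for 0.0869% of the 18404 genes. This rise chose the set, so it is given as a description with no test. HAS2-AS1, the antisense RNA of the HAS2 locus, had no probeset of its own name.

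HAS3, the other synthase measured, showed no such gap. Its log2 level was 7.0, 6.99 and 7.04 on the parental arrays and 7.09, 6.96 and 7.04 on the TRIM71 arrays. The groups overlapped, with means of 7.01 ± 0.03 and 7.03 ± 0.07. The log2 difference was 0.02 (SE 0.05), with a 95% interval from -0.11 to 0.15. Both means lay just above the median of all probeset means, 6.94, and a small difference may be hard to see at this level.

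UGDH oxidises UDP-glucose to UDP-glucuronic acid, one of the building blocks of the chain. Its log2 level was 10.45, 10.28 and 10.31 on the parental arrays and 10.37, 10.39 and 10.28 on the TRIM71 arrays. The groups overlapped and had the same mean, 10.35 ± 0.09 and 10.35 ± 0.06, with a 95% interval of the log2 difference from -0.16 to 0.16. A difference in UGDH mRNA larger than that interval was therefore not seen on the arrays where HAS2 was 4.09-fold higher.

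HYAL2, a membrane-anchored hyaluronidase that cuts long chains at the cell surface, was also higher. Its log2 level was 7.29, 7.35 and 7.40 on the parental arrays and 7.80, 7.69 and 7.88 on the TRIM71 arrays. The lowest TRIM71 array stood above the highest parental array. The means were 7.35 ± 0.05 and 7.79 ± 0.09, a log2 difference of 0.44 (SE 0.06) or 1.36-fold. A larger difference in either direction was seen for 7.43% of genes.

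CD44, the main cell-surface receptor for hyaluronan, had log2 levels of 8.18, 8.11 and 8.10 on the parental arrays and 8.06, 8.07 and 8.00 on the TRIM71 arrays. The TRIM71 arrays were all lower, though by less than 0.2 between any pair of arrays. The means were 8.13 ± 0.04 and 8.04 ± 0.04, a log2 difference of -0.09 (SE 0.05) with a 95% interval from -0.20 to 0.03, and the gene was not called.

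In all, 2 of the 5 measured genes were called higher, HAS2 and HYAL2, 0 were called lower (0 also at an unadjusted limma p under 0.05) and 3 were not called. Among all genes, 10.0% were called higher and 12.2% lower. The groups did not overlap for 3 of the 5, HAS2 and HYAL2 with TRIM71 above and CD44 with TRIM71 below, as for 43.6% of all genes (20.2% with TRIM71 above and 23.4% below). The set was chosen on this contrast, so nothing is read from these counts.

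**Figure D1:**
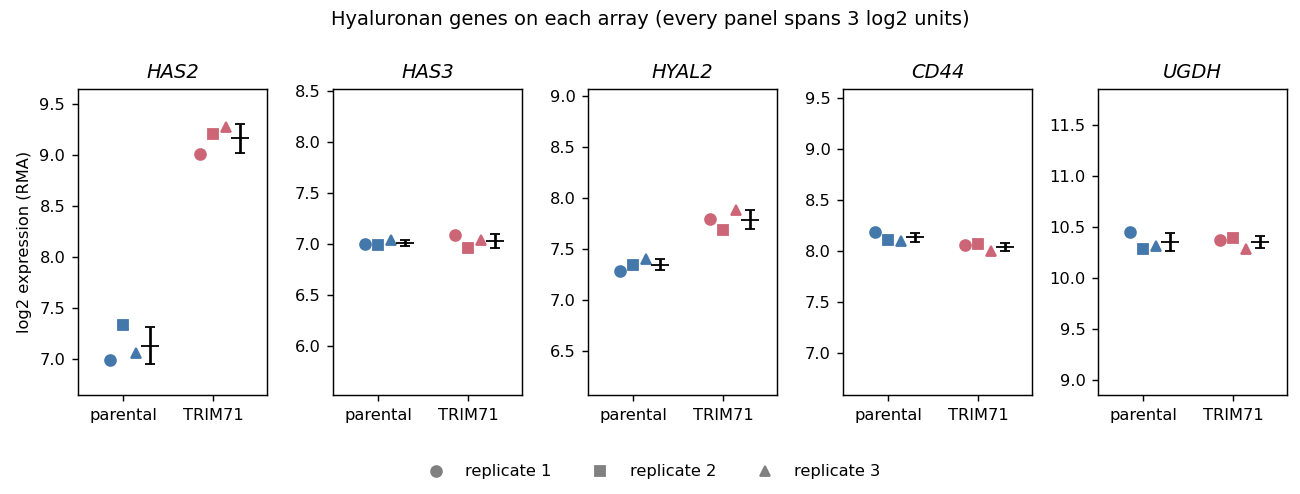
Log2 expression (vertical axis, RMA values) of the 5 measured hyaluronan genes on each array, with 1 panel per gene and the same span of 3 log2 units in every panel; points are arrays, with the replicate number as the shape, and the horizontal mark with its bar is the mean ± SD of 3 arrays. HAS2 moves from 7.13 to 9.16 and HYAL2 from 7.35 to 7.79, while HAS3, CD44 and UGDH stay within 0.09 of their parental means.

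The genes around hyaluronan were then taken from 5 lists drawn up by function, with 83 of 88 genes measured. Of these 83 genes, 10 rose, 9 fell and 64 did not pass the limma test. The shares among all genes were 10.0% and 12.2%. The median log2 difference of all genes was -0.01.

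The first list held enzymes of UDP-sugar and hexosamine metabolism, not all of which lead towards the UDP sugars. Of 14 measured, 9 did not pass, 2 rose and 3 fell, beside 10.0% higher and 12.2% lower among all genes. The median log2 difference of these 14 was -0.06. GFPT1, the first and rate-limiting enzyme of the hexosamine pathway to UDP-N-acetylglucosamine, was at log2 levels of 10.94, 10.86 and 10.91 on the parental arrays and 11.34, 11.39 and 11.38 on the TRIM71 arrays. It rose by 0.47 (SE 0.05, limma adjusted p = 0.0019), and its groups did not overlap. GNPNAT1, which acetylates glucosamine 6-phosphate one step later, went the other way, from 10.39, 10.31 and 10.26 to 9.88, 9.91 and 9.85 (log2 difference -0.45, SE 0.05, limma adjusted p = 0.0033). UAP1, which forms UDP-N-acetylglucosamine in the last step, fell by a smaller amount (-0.20, limma adjusted p = 0.0213). GNPDA1, which returns glucosamine 6-phosphate to glycolysis, rose (0.34, limma adjusted p = 0.0152). PGM2, a phosphomutase of sugar phosphates, fell (-0.35, limma adjusted p = 0.0049). UGP2, which makes the UDP-glucose that UGDH uses, was at 8.62 ± 0.09 and 8.69 ± 0.12 and did not pass (0.07, limma adjusted p = 0.649). The UAP1 call ended with any 1 of the 6 arrays left out (limma adjusted p 0.0525 to 0.0751), and that of GNPDA1 without parental replicate 2 (0.0516) or TRIM71 replicate 2 (0.0557). With the replicate number as a block neither passed (0.0821 and 0.0635).

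Of 9 other genes of cleavage, clearance and lysosomal breakdown, 9 did not pass in limma (median log2 difference -0.07). They held 0 rises and 0 falls, beside 10.0% higher and 12.2% lower among all genes. At an unadjusted limma p under 0.05, 0 were higher and 2 lower. The smallest adjusted p were those of HEXA, a subunit of the lysosomal hexosaminidases, and GUSB, the lysosomal beta-glucuronidase, which remove the sugars from the ends of hyaluronan fragments. HEXA was at 9.55, 9.60 and 9.57 on the parental and 9.42, 9.45 and 9.39 on the TRIM71 arrays (log2 difference -0.15, limma adjusted p = 0.0712). GUSB was at 9.51, 9.39 and 9.44 and at 9.28, 9.29 and 9.29 (-0.16, limma adjusted p = 0.0727). In both genes the groups did not overlap, and both passed under 7 of 17 other settings, among them both filters on dim probesets and quantile normalization. In 6 of the 9 genes the mean level lay below the median of all probesets, among them the hyaluronidases HYAL4 and SPAM1, where a difference would be hard to see.

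Of 13 receptors and partners of CD44, 1 rose, 1 fell and 11 did not pass, beside 10.0% higher and 12.2% lower among all genes. The median log2 difference of these 13 was -0.03. GAB1, a docking protein of receptor tyrosine kinases, rose from 9.29 ± 0.04 to 9.59 ± 0.07 (0.30, SE 0.05, limma adjusted p = 0.0136). Its second, dimmer probeset did not pass (0.09, limma adjusted p = 0.573). ANK3, an ankyrin that links membrane proteins to the spectrin skeleton, fell from 8.73 ± 0.05 to 8.43 ± 0.12 (-0.30, SE 0.07, limma adjusted p = 0.035). Without parental replicate 2 the GAB1 call ended (0.0542). The ANK3 call held only without TRIM71 replicate 2 (0.0249), ended with any other array left out (0.0672 to 0.109) and ended with the replicate block (0.0743) and with arrays centred on the median (0.0597). The hyaluronan receptor HMMR was at 9.50 ± 0.13 and 9.43 ± 0.08 and did not pass (-0.07, limma adjusted p = 0.65), nor did the CD44 linkers MSN (0.08, limma adjusted p = 0.266) and RDX (0.06, 0.532).

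Of 22 hyaluronan-binding matrix genes, 18 did not pass, 2 rose and 2 fell (median log2 difference 0.04), beside 10.0% higher and 12.2% lower among all genes. VCAN encodes versican, a large proteoglycan that binds hyaluronan in the matrix around cells. Its log2 level was 10.98, 11.05 and 11.08 on the parental arrays and 11.36, 11.43 and 11.42 on the TRIM71 arrays, with no overlap. It rose by 0.37 (SE 0.05, 1.29-fold, limma adjusted p = 0.0053). HAPLN3, a link protein that fixes proteoglycans to hyaluronan, went from 7.97, 8.12 and 8.01 to 7.47, 7.60 and 7.54 and fell by 0.50 on the log2 scale (SE 0.06, limma adjusted p = 0.0038). SUSD5 rose (0.28, limma adjusted p = 0.0168) and PTX3, a pentraxin of the hyaluronan-rich matrix around the oocyte, fell (-0.26, limma adjusted p = 0.046). The SUSD5 call ended without parental replicate 1 (0.0503), parental replicate 3 (0.0596), TRIM71 replicate 1 (0.0613) or TRIM71 replicate 2 (0.0614). The PTX3 call held only without parental replicate 3 (0.0325) and ended with any other array left out (0.0877 to 0.144), under each of 3 further normalizations and with the replicate block (0.087). In 17 of the 22 genes, PTX3 among them, the mean level lay below the median of all probesets.

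UDP-glucuronic acid is also used in building the heparan and chondroitin sulfate chains of proteoglycans. The last list held genes of the synthesis of these chains, not all of which encode users of UDP-glucuronic acid. Of 25 genes measured, 5 rose, 3 fell and 17 did not pass, beside 10.0% higher and 12.2% lower among all genes. The median log2 difference of these 25 was 0.05. The largest change was of GLCE, the epimerase that turns glucuronic into iduronic acid in heparan sulfate, from 10.64, 10.57 and 10.57 on the parental arrays to 9.84, 9.85 and 9.88 on the TRIM71 arrays. It fell by 0.74 on the log2 scale (SE 0.05, 0.60-fold, limma adjusted p = 4.31e-04). B3GAT3, which adds the glucuronic acid of the linker that joins both kinds of chain to protein, fell from 8.69 ± 0.08 to 8.27 ± 0.08 (-0.42, limma adjusted p = 0.0087). FAM20B, the kinase that phosphorylates the xylose of that linker, fell as well, from 9.65 ± 0.01 to 9.30 ± 0.05 (-0.35, limma adjusted p = 0.0059).

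The members of that list that rose included UXS1, which turns UDP-glucuronic acid into UDP-xylose (0.25, limma adjusted p = 0.0183), and SLC35D1, a transporter that carries UDP-glucuronic acid out of the cytosol (0.20, limma adjusted p = 0.0287). EXT1, a heparan sulfate polymerase (0.20, limma adjusted p = 0.0346), and NDST4, a heparan sulfate N-deacetylase and N-sulfotransferase (0.59, from 6.31 ± 0.07 to 6.90 ± 0.22, limma adjusted p = 0.0174), rose as well. The fifth was the xylosyltransferase XYLT2 (0.21, limma adjusted p = 0.0401), named after its value was seen. With any 1 array left out the calls of SLC35D1 (limma adjusted p 0.0618 to 0.102), EXT1 (0.0605 to 0.113) and XYLT2 (0.0694 to 0.116) ended. The UXS1 call ended without parental replicate 2 (0.0738), parental replicate 3 (0.0546), TRIM71 replicate 1 (0.0698) or TRIM71 replicate 2 (0.0664). That of NDST4 ended without parental replicate 2 (0.067), parental replicate 3 (0.0501) or TRIM71 replicate 1 (0.0596). With arrays centred on the median the calls of SLC35D1 (0.0706), EXT1 (0.0773) and XYLT2 (0.0709) ended, and none of the 5 passed with the replicate block (0.0572 to 0.0927). In 6 of the 25 genes of the list, NDST4 among them, the mean level lay below the median of all probesets.

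**Figure D2:**
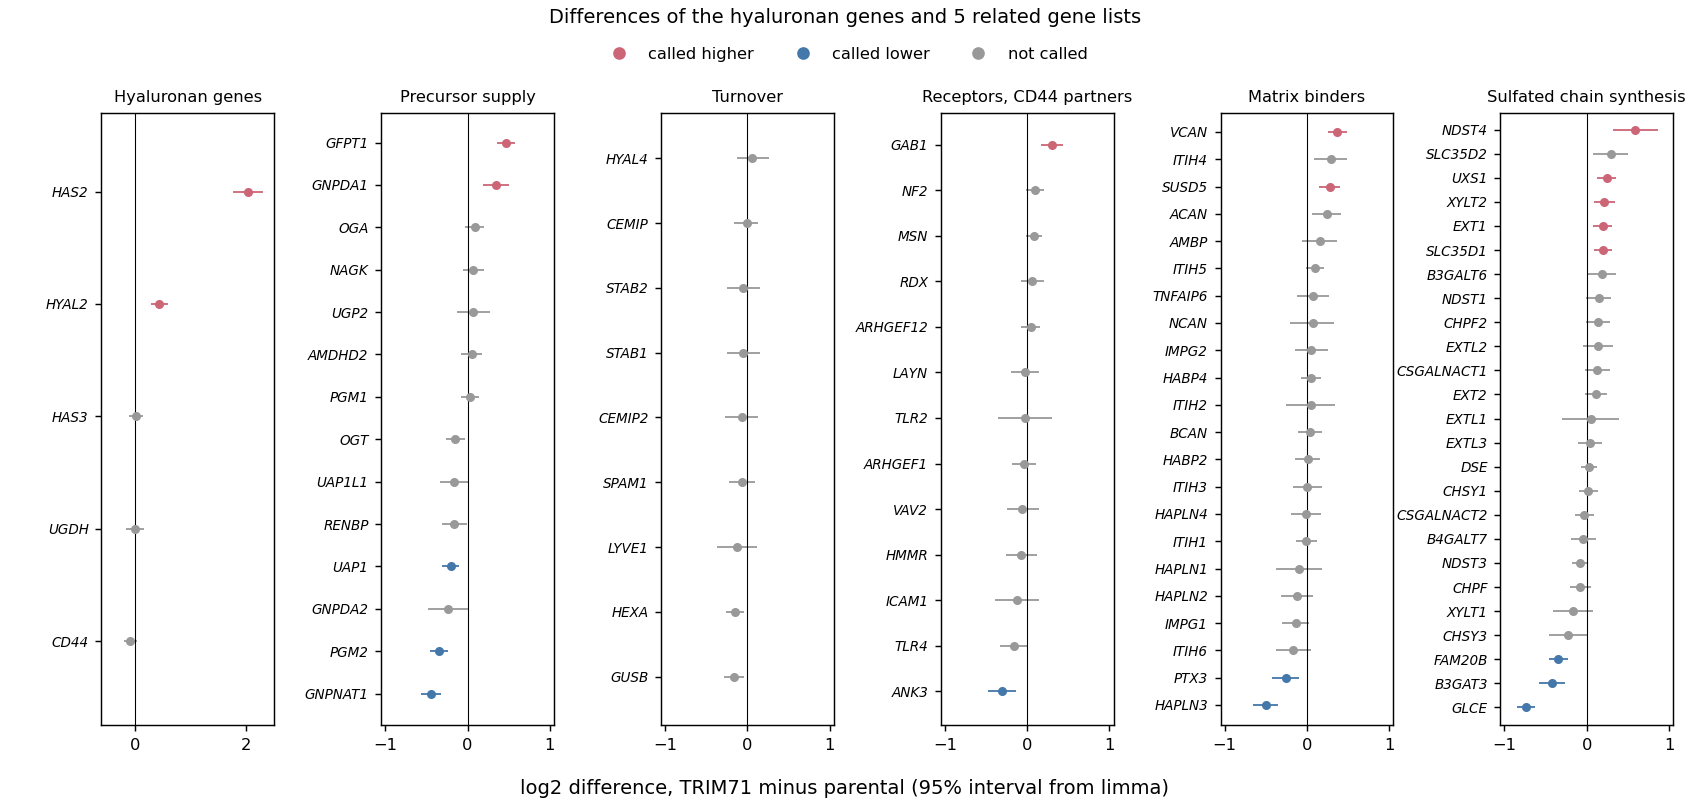
Log2 difference, TRIM71 minus parental (horizontal axis, with the 95% interval from limma), of the 5 measured hyaluronan genes and of the 5 related lists, 1 gene per line and colours for the call; the first panel has a wider axis than the others. HAS2, whose rise chose the set, is at 2.03, and the related genes run from -0.74 for GLCE to 0.59 for NDST4.

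The genes whose log2 values followed those of HAS2 most closely were found by the Euclidean distance over the 6 arrays, each gene centred on its own mean. The 5 nearest of 18404 genes were HSPB8 (distance 0.489 log2 units), PRTG (0.502), F2RL2 (0.519), RAB3C (0.584) and CALCB (0.61). Their log2 differences were 1.81, 1.68, 2.12, 1.57 and 2.47, and all 5 were called higher with groups that did not overlap. Picking genes near HAS2 favours such values, so nothing is read from them. HSPB8 is a small heat shock protein, PRTG an immunoglobulin superfamily protein of the cell surface, F2RL2 a member of the thrombin receptor family, RAB3C a GTPase of vesicle transport and CALCB a calcitonin gene-related peptide. With 2 groups of 3 arrays, likeness by this measure mainly reflects the size of the difference between groups. In the parental line, replicate 2 was the highest array for HAS2, HSPB8, PRTG, RAB3C and CALCB, but not for F2RL2. For PRTG (8.99 against 8.98 on replicate 1) and CALCB (6.76 against 6.74 on replicate 3) the margin was small. In the TRIM71 line HAS2 and PRTG were highest on replicate 3, and HSPB8, F2RL2, RAB3C and CALCB on replicate 2.

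**Figure D3:**
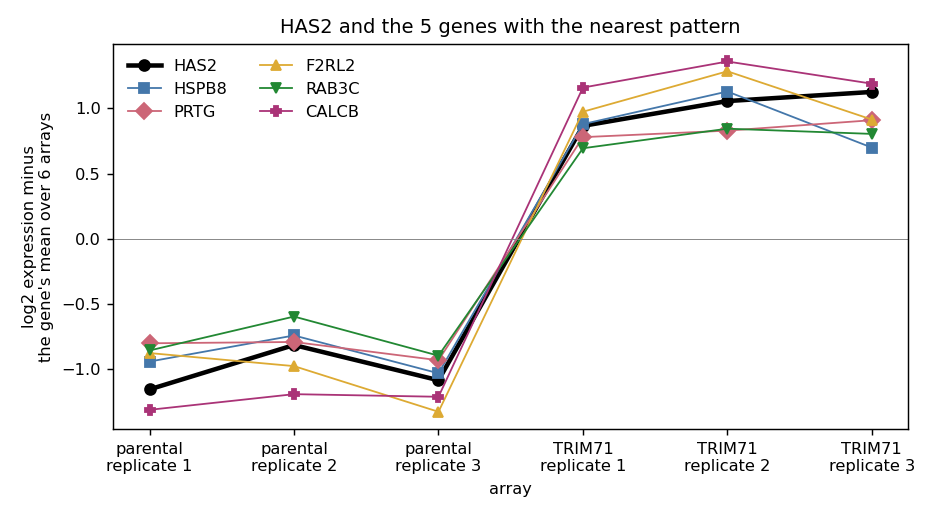
Log2 expression minus the gene's own mean over the 6 arrays (vertical axis) on each array (horizontal axis) for HAS2, the thick black line, and the 5 genes nearest to it; lines join the arrays of a gene. All 6 genes lie below their mean on the 3 parental arrays and above it on the 3 TRIM71 arrays, which the choice by nearness favours.

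HAS2 lies on chromosome 8 and HYAL2 on chromosome 3, and the 3 nearest measured protein-coding genes on each side were set beside each in RefSeq order. The shares called among all genes were 10.0% higher and 12.2% lower. Of the 6 neighbours of HAS2, 0 were called higher in limma (3 at an unadjusted p under 0.05) and 1 lower. That was SNTB1, a syntrophin of the dystrophin complex, at 10.01, 10.06 and 9.92 on the parental and 9.50, 9.56 and 9.67 on the TRIM71 arrays (log2 difference -0.42, SE 0.07, limma adjusted p = 0.0084). The other 5, MRPL13 (0.14), MTBP (0.26), ZHX2 (0.15), DERL1 (0.19) and TBC1D31 (0.08), had log2 differences above 0 and did not pass.

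Of all genes, 10.0% were called higher and 12.2% lower. Of the 6 neighbours of HYAL2, 0 were called higher in limma (0 also at an unadjusted p under 0.05) and 2 lower. IFRD2, which lies next to it on one side among the measured genes, fell from 8.93 ± 0.06 to 8.59 ± 0.03 (-0.34, SE 0.05, limma adjusted p = 0.0077). NPRL2, a subunit of the GATOR1 complex that restrains mTORC1, fell by less (-0.20, limma adjusted p = 0.0276). The NPRL2 call held only without parental replicate 1 (0.0485), ended with any other array left out (0.0789 to 0.102) and ended with the replicate block (0.0931). RASSF1, the neighbour on the other side, was at 7.52 ± 0.06 and 7.54 ± 0.04 and did not pass (0.03, limma adjusted p = 0.791).

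**Figure D4:**
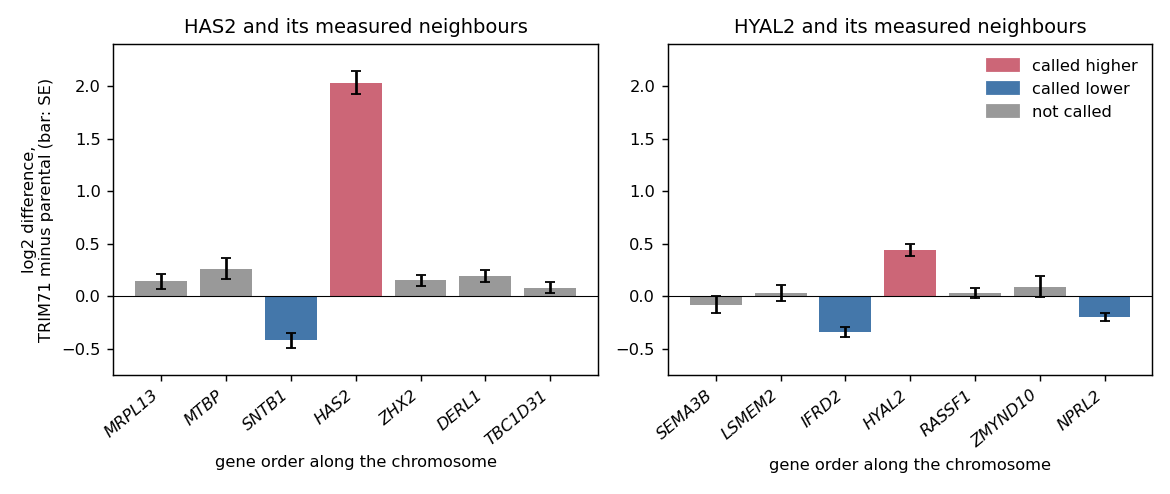
Log2 difference, TRIM71 minus parental (vertical axis, bars from 0 with the limma SE), of HAS2 (left) and HYAL2 (right) and of the 3 measured protein-coding genes on each side, in gene order along the chromosome; colours give the call. HAS2 at 2.03 and HYAL2 at 0.44 are the called rises, and SNTB1, IFRD2 and NPRL2 are the called falls.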

How the data were processed

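Sample titles gave the groups and replicate numbers. The authors deposited log2 expression values, and the submitters' processing notes name RMA and affy. Their versions, the array annotation and the build are not given in the sources used here. RMA gives the arrays a common intensity distribution, so a change in total mRNA per cell cannot be seen, and dim probesets show too small a fold change. Genes were not ranked by level, since probesets differ in brightness for the same amount of RNA, and the median of all probeset means served only as a mark of dimness.

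All 32321 probesets were fitted in limma 3.58.1 (R 4.3.3) by group, using lmFit and eBayes with no trend and no filter, with Benjamini-Hochberg adjustment over all of them and calls at an adjusted p under 0.05. Genes were named from probesets with 1 annotated symbol, 19158 in all, and a gene with several was represented by the brightest on average. Tables and figures were made in Python 3.11.15 with matplotlib 3.10.9. Named were all members, TRIM71, up to 4 called genes per direction of each pathway list (or the 2 with the smallest adjusted p where under 2 were called), called neighbours and the 5 genes nearest to HAS2. Outside this rule, UGP2, HMMR, MSN, RDX, XYLT2, HYAL4, SPAM1, RASSF1, the uncalled neighbours of HAS2 and genes of the marker lists were also named. The members and lists were chosen with earlier results of these data known. The 17 alternatives were other variance models, normalizations, filters and thresholds, array weights, 1 probeset per gene, a replicate block and each array left out. Deviations of same-numbered arrays from their group means correlated at 0.0676, -0.188 and 0.108, so the numbers were not taken to pair the arrays.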

Additional observations from a re-analysis of the deposited data

How the results depend on the processing

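Over the 17 alternatives the log2 difference of HAS2 ranged from 1.96 to 2.13 and that of HYAL2 from 0.40 to 0.49. The set was chosen on this contrast, so these ranges describe the processing only and support nothing. The log2 difference of UGDH, which rounds to 0, was 0.029 with array weights and ranged from -0.034 to 0.052 with 1 array left out, and that of HAS3 ranged from -0.011 to 0.058. TRIM71 stayed between 3.25 and 3.40.

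The fit called 5248 probesets in all. A separate fit with the replicate block called 3127, an adjusted p under 0.01 left 2246, and fits with 1 array left out called 2917 to 4092. How many probesets these fits share was not counted. Pathway counts moved by 1 to 5 genes. Precursor genes called lower were 4, not 3, with either intensity trend, the filter at the median and 1 probeset per gene. They were 2 with the replicate block, at an adjusted p under 0.01 and with any 1 array left out. Turnover genes called lower were 2, not 0, with either intensity trend, quantile normalization, cyclic loess, either filter on dim probesets and 1 probeset per gene. Matrix binders called lower were 1, not 2, with either intensity trend, quantile normalization, cyclic loess, median centring, the filter at the median, the replicate block and an adjusted p under 0.01. With the filter at the median PTX3 and NDST4 were removed as dim and so were not fitted. The count of sulfated chain genes called higher was still 5 with that filter. Binders called higher were 4, not 2, with cyclic loess and 1 probeset per gene, and 1 at an adjusted p under 0.01. They were 3 with quantile normalization, median centring and the filter at the lower quartile. With 1 probeset per gene, sulfated chain genes called higher were 6, not 5. Median centring left 0 receptors lower and 2 sulfated chain genes higher. The replicate block left 1 precursor gene higher, 0 receptors lower and 0 sulfated chain genes higher. An adjusted p under 0.01 left 1 precursor gene higher, 0 receptors in either direction and 0 sulfated chain genes higher. With 1 array left out, counts ranged from 1 to 2 for precursors higher, 0 to 1 for receptors in either direction, 1 to 2 for binders in either direction and 0 to 2 for sulfated chain genes higher. Apart from the removal of PTX3 by the filter at the median, the causes of these moves were not tested. The replicate block changed the calls named above and of the other named genes none. Precision is limited by having 3 arrays per group, and for dim probesets by their background.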
